A study of Mus musculus with 4 samples.

Results

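The barcodes described here are neuron barcodes of a Drop-seq experiment at the low and at the high end of its depth. Drop-seq isolates cells in droplets with barcoded beads, and RNA molecules are counted by their unique molecular identifiers (UMIs). The members were chosen by measured values of these same data. A barcode was taken as a neuron barcode when mitochondrially encoded genes made up at most 10% of its UMIs and the summed UMIs of Snap25, Syt1, Stmn2, Snhg11 and Meg3 made up at least 0.6%. Shallow barcodes had 400 to 800 genes detected and deep barcodes 1500 or more. There were 394 shallow and 1573 deep neuron barcodes, together 1967 of the 10200 barcodes listed. Libraries 1 to 4 held 110, 63, 90 and 131 shallow barcodes and 580, 352, 238 and 403 deep ones. The 522 neuron barcodes between these limits, called middle here, were used only to see whether levels between the ends lay between them.

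The tissue was the BNST (bed nucleus of the stria terminalis), a part of the extended amygdala made up mostly of GABAergic neurons, and the series concerned neurons that express prepronociceptin. All mice were male wildtype C57BL/6J and their age was not given in the sources used here. Each of the 4 libraries came from a pool of 6 mice, so that n = 4 libraries of a single group, with no treatment or control. All comparisons were therefore between sets of barcodes of the same library.

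A neuron keeps some RNAs in its nucleus and sends most messenger RNAs to the cytoplasm, and large neurons lose processes when tissue is dissociated. Malat1 is a long noncoding RNA that stays in nuclear speckles, whereas messages for ribosomal proteins, respiratory enzymes and synaptic vesicle proteins are translated in the cytoplasm. Droplets also take up free RNA released by broken cells, and in forebrain tissue the abundant messages of oligodendrocytes (myelin proteins) and astrocytes (transporters and apolipoproteins) are common in it. Relative levels of these classes of RNA were compared between the shallow and the deep barcodes.

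The libraries held 5652342, 2762405, 2640399 and 2962880 UMIs in all. Over all pairs of libraries 20 barcodes were shared, none of them a neuron barcode in both. Malat1 was lowest in library 1 and highest in library 4 in shallow and in deep neuron barcodes alike. Many of the calls below do not pass the threshold without library 4, and values without it are given beside them. Coordinates are those of GRCm38.

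The rule itself fixed the number of genes, the share of the 5 neuron genes and the limit on mitochondrial UMIs, so these are descriptions. Shallow barcodes had a median of 713, 697, 757 and 727 UMIs in libraries 1 to 4 and deep barcodes 5667, 4469.5, 4956 and 3710. Mitochondrial genes made up 5.34%, 3.91%, 5.47% and 2.56% of the summed UMIs of shallow barcodes and 5.25%, 4.24%, 4.71% and 2.15% of those of deep barcodes. The 5 neuron genes together made up 1.49%, 1.51%, 2.93% and 2.35% in shallow and 1.26%, 1.41%, 2.30% and 1.97% in deep barcodes. Among them the noncoding RNAs Meg3 and Snhg11 and the vesicle calcium sensor Syt1 were higher in shallow barcodes in 4 of 4 libraries, the fusion protein gene Snap25 in 2 and the microtubule regulator Stmn2 in 1.

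At the lower gene limit, the 46 barcodes just below 400 genes had a median of 469.5 UMIs and the 36 just above it 499.5. At the upper limit of the shallow set, the 10 barcodes just inside 800 genes had a median of 1064.5 UMIs and 2.55% glial markers, and the 26 just outside it 1096 UMIs and 0.144%. The 35 barcodes just below 1500 genes had 2235 UMIs and the 32 just above it 2365. At the limit on the neuron genes, 54 barcodes of 400 to 800 genes had a share of 0.4% to 0.6%, and 3.05% of their UMIs came from 15 oligodendrocyte and 17 astrocyte markers. The 33 barcodes just inside it, at 0.6% to 0.8%, had 1.56%.

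The sequence of the barcode itself, which the rule did not use, differed between shallow and deep barcodes. A barcode has 12 bases, and in some the last base was undetermined and written as N. Of the shallow neuron barcodes 73 of 394 ended in N, 18.5% (95% exact binomial interval 14.8% to 22.7%), against 113 of 1573 deep ones, 7.18% (5.96% to 8.57%). These intervals pool the barcodes and leave out the spread between libraries. In library 4 alone the shallow interval was 4.82% to 15.5%, which held the deep share of 7.69%. By library the shares were 31.8%, 20.6%, 14.4% and 9.16% in shallow and 7.41%, 6.53%, 6.72% and 7.69% in deep barcodes, so that the groups did not overlap and the share in shallow barcodes was lowest in library 4. In shallow non-neuronal barcodes, with the same number of genes, mitochondrial UMIs within the limit and under 0.6% of the neuron genes, the share was 7.37%. Middle neuron barcodes had 9.96%. An exact sign-flip test over 4 libraries cannot pass 0.05, so no p is given. Without the barcodes ending in N, a choice made after this was seen, 36 of the 45 genes called in the comparison of shallow with deep barcodes passed again.

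A bead can be split over several barcodes when a base is missing or misread, and the neighbours of each barcode were counted in its own library. Only 2 of the 394 shallow barcodes (0.508%) were 1 base away from a barcode with more UMIs, against 421 of 4059 barcodes with under 200 genes (10.4%). Both are shown with their neighbours because they are all the shallow barcodes of this kind, with the last base in capitals and positions counted from 1 at the 5′ end:
shallow barcode, library 1: cgctagcttagN
its neighbour, library 1: cgctagcttagG
shallow barcode, library 2: acgagttcgatN
its neighbour, library 2: acgagttcgatT
The differences were N12G and N12T. The library 1 barcode had 983 UMIs and its neighbour 1558, and the library 2 barcode 486 and its neighbour 1786. Both neighbours were themselves middle neuron barcodes. Of the deep barcodes 214 of 1573 (13.6%) had some neighbour, from 24.8% in library 1 to 1.49% in library 4, but only 1 had a neighbour with more UMIs.

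**Figure D1:**
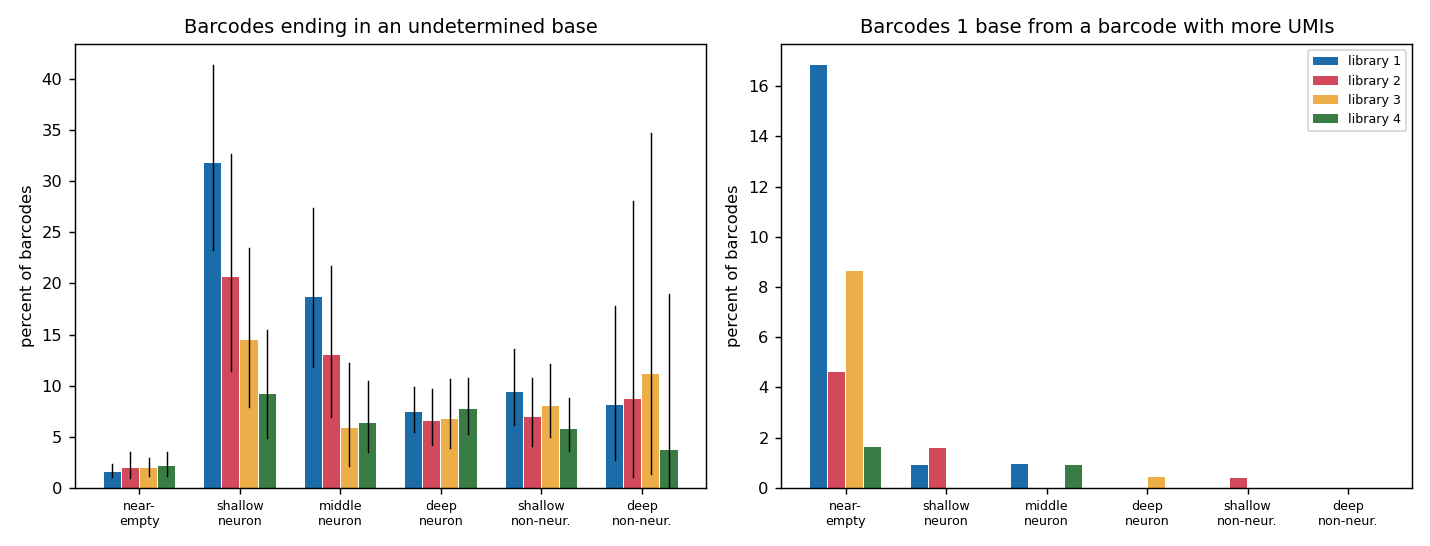
Left, percent of barcodes ending in an undetermined base, by barcode set and library, as bars with 95% exact binomial intervals; right, percent of barcodes 1 base away from a barcode of the same library with more UMIs. Shallow neuron barcodes had the higher share on the left in each library (9.16% to 31.8% against 6.53% to 7.69% in deep ones), while on the right the shares of near-empty barcodes (under 200 genes) stand above those of the shallow neuron barcodes.

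Raw UMIs were summed per library and set, giving 81225, 45784, 70701 and 95869 UMIs in the shallow sums and 3725023, 1748886, 1318656 and 1661251 in the deep sums. Levels are given as CPM, the UMIs of a gene scaled to a common total of UMIs. Of 8509 genes tested with edgeR's quasi-likelihood test, with library as a block, 36 were higher in shallow barcodes (0.423%) and 9 lower (0.106%), 0.529% in all, at a Benjamini-Hochberg adjusted p under 0.05. With RLE in place of TMM scaling the split was 46 higher and 5 lower. Of the 36 higher genes 15 were in the lists of oligodendrocyte and astrocyte markers, and Malat1 was among the others. Of the 9 lower genes 5 were in the cytoplasmic lists (Gal, Vgf, Cck, Tubb2a and Aldoa) and 4 in no list. All 9 lower genes and 19 of the 36 higher ones changed in the same direction in 4 of 4 libraries. The low-count filter also keeps genes that reach its level in a single group. Of the 19, Sox9 and Sepp1 passed it through the shallow sums only, on 10 and 13 shallow UMIs. In deep barcodes they had 1.72 to 4.82 and 3.43 to 10.5 CPM, and nothing is read from them. Cldn11, Ptgds, Mobp and Slc1a3, described below, reached the level of the filter in only some of the deep sums. They too were tested only because of the shallow sums, so the sizes of their rises are descriptions. The counts of glial marker calls below include such genes.

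These counts depended on single libraries, most of all on library 4. Without library 1 the counts were 60 higher and 15 lower, without library 2 only 5 were lower, and without library 3 only 23 were higher. Without library 4, 5 genes were higher and 1 lower, and 6 of the 44 earlier calls that were still tested passed again, although all 44 kept their sign. DESeq2 called 11 genes higher, all among the 36, and 0 lower, with 218 higher and 113 lower at an unadjusted p under 0.05, where edgeR had 289 and 401.

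**Figure D2:**
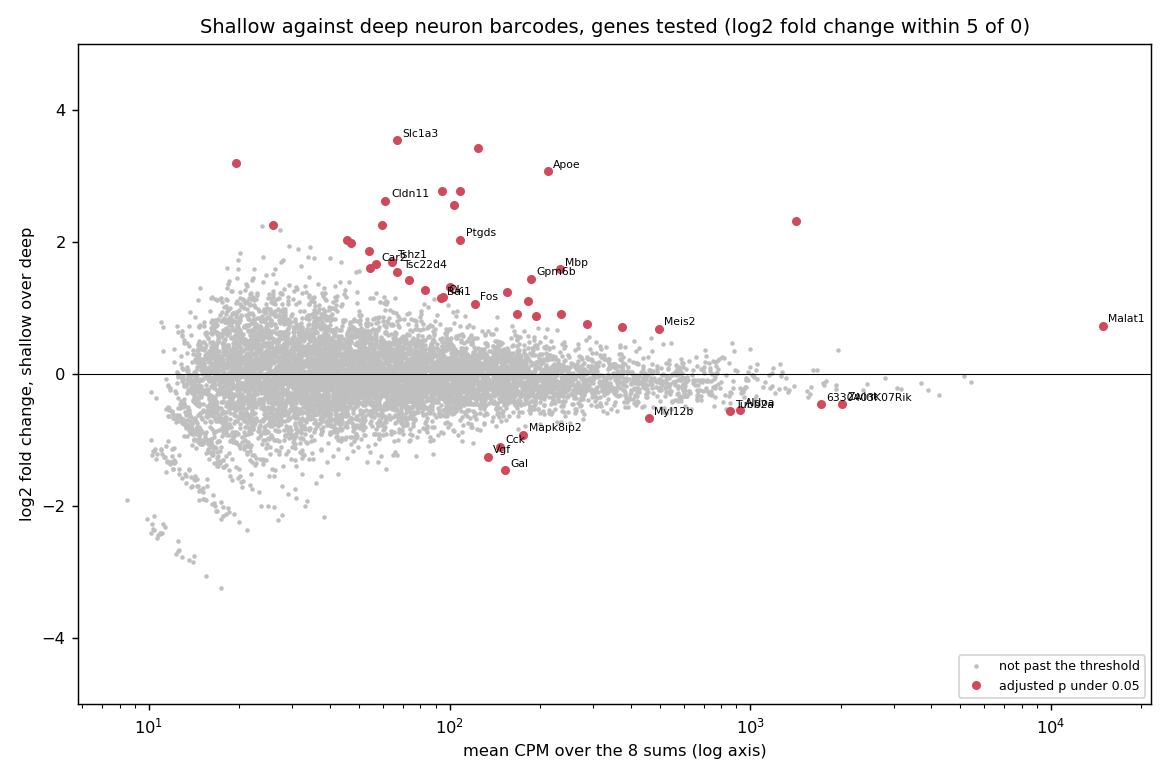
Log2 fold change of each tested gene, shallow over deep neuron barcodes, against its mean CPM over the 8 sums (log axis); red points have a Benjamini-Hochberg adjusted p under 0.05 in edgeR and those described in the text are named, with the vertical axis centred on 0. Malat1, the most abundant named gene, has 0.73, and the 9 lower genes lie between -0.45 and -1.46.

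Malat1, the nuclear speckle RNA, on chromosome 19 at 5795690 to 5802672, was the most abundant nuclear RNA listed. It had 10231, 13848, 21725 and 30698 CPM in the shallow barcodes of libraries 1 to 4 and 7918, 8744, 11999 and 13622 CPM in the deep ones. Within each library the shallow barcodes were higher, and the smallest difference was in library 1, while the ranges over libraries overlapped. The fitted log2 difference was 0.73 (SE 0.11), with an adjusted p of 7.31e-07 in edgeR. Middle barcodes had 11261, 11937, 17183 and 17280 CPM, above the deep ones in 4 of 4 libraries, and shallow barcodes were above the middle ones in 3. Without library 4 the log2 fold change was 0.56 and its adjusted p in edgeR 0.136.

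Malat1 is also high in glia, and its level was read beside the glial markers. Shallow non-neuronal barcodes held 66156, 65863, 77954 and 79837 CPM, above every neuron sum, and near-empty barcodes 25525, 30536, 36097 and 49223 CPM. Near-empty barcodes were all those with under 200 genes, with no limit on mitochondrial UMIs or neuron genes. When barcodes with at least 2% of UMIs from the 32 glial markers were left out, the log2 fold change was 0.58 (adjusted p 1.76e-04 in edgeR), and with a limit of 0.5% it was 0.54 (adjusted p 0.0235). The 79 shallow barcodes without a single glial marker UMI had 12277, 16872, 21566 and 21157 CPM, in each library above all deep barcodes, by 0.77 ± 0.16 on the log2 scale (SD, n = 4). Only 6 deep barcodes had no glial marker UMI, and they held 15008 CPM in library 1 (5 barcodes) and 29632 CPM in library 3 (1 barcode), above the shallow barcodes without one.

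The increase was not even over barcodes. The median share of Malat1 in a shallow barcode was 0.828%, 0.899%, 1.45% and 1.83% in libraries 1 to 4, and in a deep barcode 0.744%, 0.844%, 1.12% and 1.29%. Medians were thus higher in shallow barcodes in each library, by less than the sums. In middle barcodes the median was 0.954%, 1.01%, 1.56% and 1.62%, above the shallow median in libraries 1 to 3. A set of 28 shallow barcodes (7.11%) had at least 5% Malat1, with 0, 1, 8 and 19 in libraries 1 to 4, and held 32.2% of the Malat1 UMIs of all shallow barcodes. Of these, 12 also had at least 2% glial markers and 2 had no glial UMI. Among deep barcodes 3 of 1573 (0.191%) reached 5% Malat1. At 500 UMIs per barcode, 96.5% ± 3.25 of shallow and 96.9% ± 1.56 of deep barcodes had a Malat1 UMI (SD, n = 4), over 374 shallow barcodes with 20 left out, and without thinning the shares were 97.7% and 100%.

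**Figure D3:**
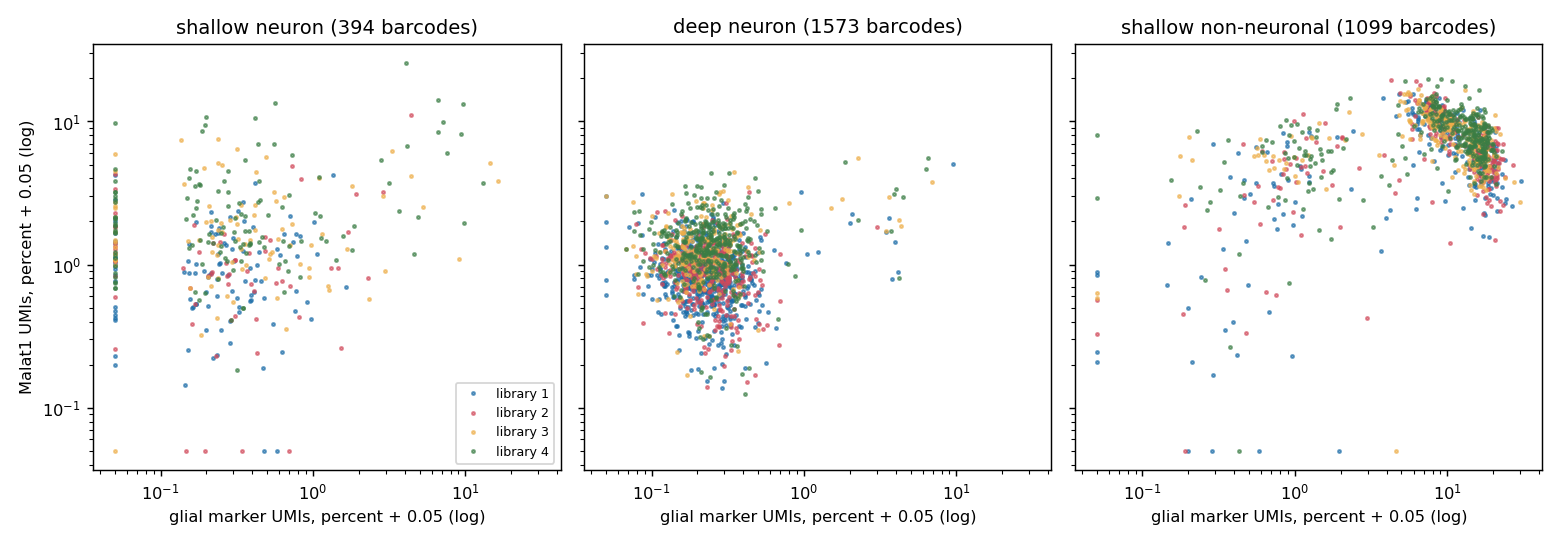
Each point is a barcode, coloured by library, with its percent of UMIs from 32 glial markers on the horizontal axis and from Malat1 on the vertical axis, both with 0.05 added and on log axes. Of the shallow neuron barcodes, 28 have at least 5% Malat1, against 3 deep ones, and 27 have at least 2% glial markers; the column at the left edge holds the 79 shallow barcodes without a glial UMI.

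None of the other nuclear noncoding RNAs tested passed the threshold. Of 13 listed genes, 9 were tested, 1 (Malat1) was higher and none lower, and their median log2 fold change was -0.07, beside -0.05 over all genes tested. Rian, an imprinted RNA of the Dlk1-Dio3 domain, had 234, 328, 481 and 334 CPM in shallow and 202, 245, 391 and 246 CPM in deep barcodes. It was higher in shallow barcodes in each library with overlapping ranges, and its log2 fold change of 0.31 (SE 0.18) did not pass the test (adjusted p 0.716 in edgeR). Miat, another nuclear noncoding RNA of neurons, had 0.40 (SE 0.31), and Mirg, from the same imprinted domain as Rian, 0.71 on 22 shallow UMIs. Gm26924, a predicted noncoding gene, had -0.18 (SE 0.13). Neat1, the RNA of paraspeckles, had 5 UMIs in all shallow sums and was not tested.

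Messages for RNA processing and nuclear proteins were tested as a second class. None of 29 passed the test in either direction, 24 were above 0, and their median was 0.18. Luc7l3, a splicing factor gene, had 923, 1245, 1033 and 824 CPM in shallow and 767, 668, 870 and 722 CPM in deep barcodes, higher in each library. Summed, the class made up 1.06%, 1.13%, 1.39% and 1.29% of shallow UMIs and 0.964%, 0.947%, 1.17% and 1.06% of deep UMIs. The within-library difference was 0.23 ± 0.06 on the log2 scale (SD, n = 4) and the ranges overlapped.

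Cytoplasmic messages were followed in 7 lists, for ribosomal proteins, oxidative phosphorylation, glycolysis, the cytoskeleton, calmodulin with ubiquitin and 14-3-3 proteins, synaptic vesicles, and secretory granules with neuropeptides. Over the 7 lists 252 genes were tested, of which 5 were lower in shallow barcodes (1.98%, beside 0.106% of all genes tested) and none higher (0.423% of all genes). Most log2 fold changes were small and below 0, in 194 of 252 genes (77.0%) against 4679 of 8509 genes (55.0%), and the median was -0.21 beside -0.05 over all genes.

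The lists ranged from 14 to 79 tested genes. Glycolysis had the lowest median, -0.31 over 14 genes, with the aldolase gene Aldoa lower. The cytoskeleton had -0.29 over 28 genes, with the tubulin gene Tubb2a lower. Synaptic vesicle genes had -0.26 over 24 genes with none past the test, and their sum made up 1.05%, 1.02%, 0.926% and 1.01% of shallow and 1.10%, 1.11%, 1.14% and 1.18% of deep UMIs, ranges that did not overlap. Of oxidative phosphorylation genes 66 of 79 were below 0 and none passed the test, with a median of -0.21, and their sum was lower in shallow barcodes in 3 of 4 libraries, library 1 being the exception. The 60 ribosomal protein genes had a median of -0.11, with none past the test and 25 above 0.

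Among these messages Tubb2a, a neuronal beta-tubulin gene on chromosome 13 at 34074274 to 34078007, had 751, 743, 636 and 678 CPM in shallow and 1067, 1009, 866 and 1100 CPM in deep barcodes. The groups did not overlap. It fell by 0.56 on the log2 scale (SE 0.14, adjusted p 0.0185 in edgeR). Aldoa had 1059, 852, 453 and 709 CPM in shallow and 1251, 1185, 758 and 1124 CPM in deep barcodes, lower in each library with overlapping ranges. It fell by 0.54 on the log2 scale (SE 0.14, adjusted p 0.0287 in edgeR). Without library 2 or 3 its adjusted p was 0.0851 or 0.0678. Aldoa overlaps Fam57b on the opposite strand, and the counting strand was not given in the sources used here.

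Of the 9 genes past the threshold, the secretory list held the 3 with the largest falls, 3 of its 24 tested genes beside 0.106% of all genes. Vgf, a granule protein gene regulated by activity, had 24.6, 43.7, 113 and 136 CPM in shallow and 167, 133, 209 and 247 CPM in deep barcodes, lower in each library. Vgf fell by 1.25 on the log2 scale (SE 0.28, adjusted p 0.00561 in edgeR), on 25 shallow UMIs, and without library 1 it was -0.99 (adjusted p 0.105). Cck, the cholecystokinin gene, had 61.6, 21.8, 127 and 146 CPM in shallow and 180, 128, 348 and 168 CPM in deep barcodes, with -1.10 (SE 0.27, adjusted p 0.0149 in edgeR). Without library 1 or 3 its adjusted p was 0.137 or 0.281. Gal, the galanin gene, had 234, 43.7, 0 and 10.4 CPM in shallow and 239, 511, 110 and 72.2 CPM in deep barcodes. In library 1 the Gal values were almost equal, and the fitted -1.46 (SE 0.31, adjusted p 0.00269 in edgeR) rests on 22 shallow UMIs. Without library 2 it was -0.85 (adjusted p 0.346), without library 1 -3.76 (adjusted p 2.58e-06) and without barcodes ending in N -3.24 (adjusted p 4.16e-10). Where a random part of the UMIs of each barcode set its group and the remaining UMIs gave the counts, Gal had -0.71 (adjusted p 0.496). Neuropeptides belong to subsets of neurons, and which neuron types the shallow barcodes came from was not tested.

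The other falls were Mapk8ip2, a scaffold of the JNK pathway (-0.92, SE 0.24), Myl12b, a myosin light chain gene (-0.67, SE 0.17), 6330403K07Rik (-0.46, SE 0.12) and Zwint (-0.45, SE 0.12). Mapk8ip2 had 160, 65.5, 113 and 136 CPM in shallow and 199, 233, 263 and 240 CPM in deep barcodes, which did not overlap, and its adjusted p was 0.175 without library 2 and 0.224 without library 3. Myl12b overlaps Gm26561 on the opposite strand. All 9 falls were lower still, by mean CPM, in shallow non-neuronal barcodes. The rule itself made that contrast, in which 25.6% of 3794 genes tested were called higher in neuron barcodes, so nothing is read from it. DESeq2 called none of the 9 falls, and neither did edgeR without the library block. Without library 4, Cck alone passed (adjusted p 0.0305), and the adjusted p of the other 8 lay between 0.136 for Vgf and 0.475, while the log2 fold changes moved little or grew (Vgf -1.57, Mapk8ip2 -0.99, Tubb2a -0.53, Zwint -0.48).

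**Figure D4:**
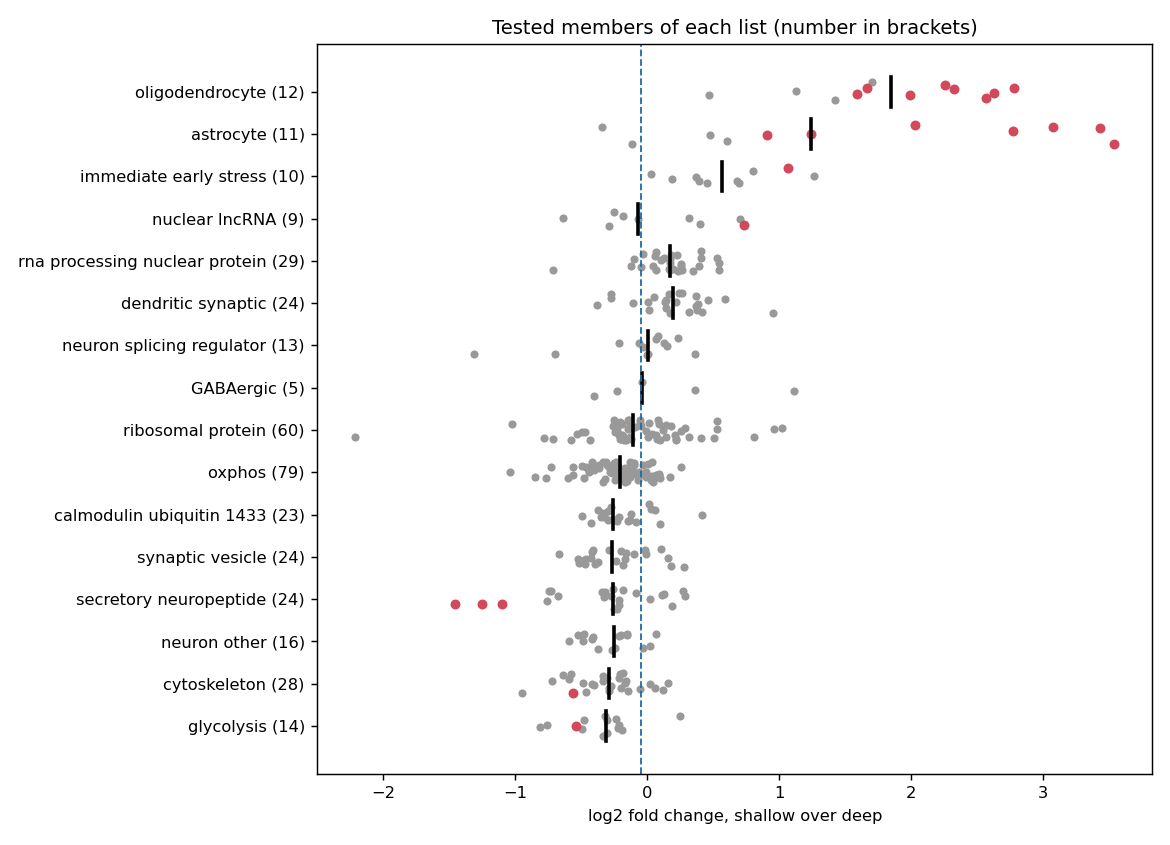
Log2 fold change of the tested members of each list, shallow over deep neuron barcodes, with red points past a Benjamini-Hochberg adjusted p of 0.05 in edgeR, a black bar at the median of the list and a dashed line at the median of all genes tested (-0.05). The oligodendrocyte (1.85) and astrocyte (1.24) medians lie to the right, and the medians of the 7 cytoplasmic lists lie between -0.11 and -0.31.

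Not all neuronal messages were lower. Of 24 dendritic and synaptic genes tested, 20 were above 0 with a median of 0.20, and none passed the test in either direction. Gria2, an AMPA receptor subunit gene, had 1773, 2184, 3098 and 1930 CPM in shallow and 1509, 1570, 1804 and 1780 CPM in deep barcodes, higher in each library (0.37, SE 0.12, adjusted p 0.17 in edgeR). Nrxn3, a presynaptic adhesion gene, had 1059, 764, 1641 and 1085 CPM against 691, 724, 1108 and 895 CPM, also higher in each library (0.38, SE 0.13, adjusted p 0.221). Gria3, another AMPA receptor subunit gene, had -0.27.

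Genes with long genomic spans, as many synaptic genes are, were compared as classes. Over genes under 10 kb the median log2 fold change was -0.11 (1817 genes), and over genes of more than 100 kb it was 0.04 (1426 genes), with -0.07 and -0.03 in the classes of 10 to 30 and 30 to 100 kb. No gene over 30 kb was called lower, while 6 genes under 10 kb and 3 of 10 to 30 kb were, beside 0.106% of all genes tested. Genes called higher numbered 8, 11, 8 and 9 from the shortest to the longest class. These calls are few, and nothing about span is read from them. By library, only genes with a mean of at least 50 CPM were used, and glial markers were left out. Over the 797 such genes of more than 100 kb, the medians were 0.03, 0.05, 0.04 and 0.03. The 950 such genes under 10 kb had 0.01, -0.12, -0.23 and -0.19, so that the difference between the classes was smallest in library 1. These are descriptions across genes, which are not replicates.

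Glial messages showed the largest differences. Of 12 oligodendrocyte markers tested, 8 were higher in shallow barcodes and none lower, beside 0.423% and 0.106% of all genes tested, with a median of 1.85. Of these 12, 5 were higher in 4 of 4 libraries, beside 504 of 8509 genes tested. Mobp, a myelin gene, passed in edgeR but had 0 CPM in shallow and 26.6 CPM in deep barcodes of library 1. It was higher in the other 3 libraries, and its adjusted p in DESeq2 was 0.9998. Mbp, the myelin basic protein gene, had 135, 240, 481 and 553 CPM in shallow and 87, 79.5, 146 and 138 CPM in deep barcodes (1.59, SE 0.20, adjusted p 5.28e-10 in edgeR). It was higher in each library, with the smallest ratio in library 1, and without library 4 its value was 1.33 (adjusted p 0.0196). Cldn11, the tight junction gene of myelin, had 73.9, 21.8, 127 and 198 CPM in shallow and 11.5, 1.14, 29.6 and 26.5 CPM in deep barcodes (2.62, SE 0.40, adjusted p 9.12e-07), and without library 4 its value was 2.39 (adjusted p 0.107).

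Summed, oligodendrocyte markers made up 0.117%, 0.186%, 0.741% and 0.505% of shallow UMIs and 0.0716%, 0.0324%, 0.131% and 0.114% of deep UMIs, higher in each library with overlapping ranges. Shallow non-neuronal barcodes had 7.58% to 10.4% and near-empty barcodes 1.82% to 2.36%. The share in shallow neuron barcodes was thus below that in near-empty barcodes in each library.

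Astrocyte markers were less even over libraries, and none of the 11 tested was higher in 4 of 4. Of 11 tested, 7 were higher and none lower, beside 0.423% and 0.106% of all genes tested, and 9 were above 0, beside 45.0%. Their median was 1.24, beside -0.05. Their sum was 0.150%, 0.319%, 0.287% and 0.597% in shallow and 0.182%, 0.185%, 0.155% and 0.179% in deep barcodes, so that library 1 was the exception. Apoe, an apolipoprotein gene, had 24.6, 328, 127 and 1064 CPM in shallow and 26.6, 28.0, 60.7 and 41.5 CPM in deep barcodes. Library 4 was far above the others and library 1 showed no increase. It rose by 3.07 in the fit (SE 0.29, adjusted p 2.37e-16 in edgeR), and without library 4 it was 1.76 (adjusted p 0.235). Slc1a3, a glutamate transporter gene, had 0, 65.5, 84.9 and 344 CPM in shallow and 7.25, 3.43, 19.0 and 10.2 CPM in deep barcodes (3.54, SE 0.43, adjusted p 2.32e-10), and without library 4 its value was 2.06 (adjusted p 0.685). Clu and Cst3, which were also abundant in deep neuron barcodes, did not pass the test, with -0.12 and 0.47.

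Of the largest rises, Ptgds, a prostaglandin synthase gene that is abundant in glia and meninges, had 86.2, 87.4, 283 and 250 CPM in shallow and 55.8, 9.15, 42.5 and 56.0 CPM in deep barcodes, which did not overlap. Ptgds rose by 2.03 on the log2 scale (SE 0.30, adjusted p 1.75e-07 in edgeR). Car2, a carbonic anhydrase gene (1.66), Tsc22d4 (1.55), Gpm6b, a membrane glycoprotein gene of glia and neurons (1.44), and Qk, an RNA-binding protein gene of myelinating cells (1.17), also rose in 4 of 4 libraries. Bai1, an adhesion receptor gene, rose by 1.15. Without library 4 none of these 5 genes passed, with an adjusted p in edgeR of 0.0654 for Gpm6b and 0.475 to 0.781 for the other 4, while Ptgds (0.033) and Mbp (0.0196) did. Of the 36 rises, 31 were in genes higher still, by mean CPM, in shallow non-neuronal barcodes. The rule itself made that contrast, in which 27.3% of 3794 genes tested were called lower in neuron barcodes, so nothing is read from the count.

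Glial UMIs were concentrated in few barcodes. Only 27 shallow barcodes (6.85%) had at least 2% glial markers, with 0, 3, 9 and 15 in libraries 1 to 4, and they held 61.7% of the glial UMIs of the shallow set. Among deep barcodes there were 22 (1.40%), holding 20.3%. Without such barcodes 9 genes were higher (0.107% of 8379) and 6 lower (0.0716%), and Mbp still rose by 1.10. With a limit of 0.5%, chosen after these values were seen, 3 genes remained higher, Malat1, Meis2 and Tshz1, and the glycolytic gene Aldoc, an astrocyte marker here, was lower. Mbp then had 0.14 (adjusted p 0.984 in edgeR). This limit selects on the markers themselves, and a single glial UMI weighs more in a shallow barcode.

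At an equal depth of 500 UMIs, an Mbp UMI was found in 9.76% ± 3.49 of shallow and 4.55% ± 1.02 of deep neuron barcodes (SD, n = 4), and in 48.3% ± 7.15 of shallow non-neuronal ones. Without thinning the shares were 12.9%, 28.3% and 49.7%, at a median of 731.5, 4615 and 892 UMIs per barcode. Mbp is a gene of myelinating cells, and the source of its UMIs in either neuron set was not tested. For Apoe the thinned shares were 6.76% ± 5.49 in shallow and 1.43% ± 0.565 in deep barcodes. Scrublet called 9 shallow (2.28%) and 27 deep barcodes (1.72%) as doublets.

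**Figure D5:**
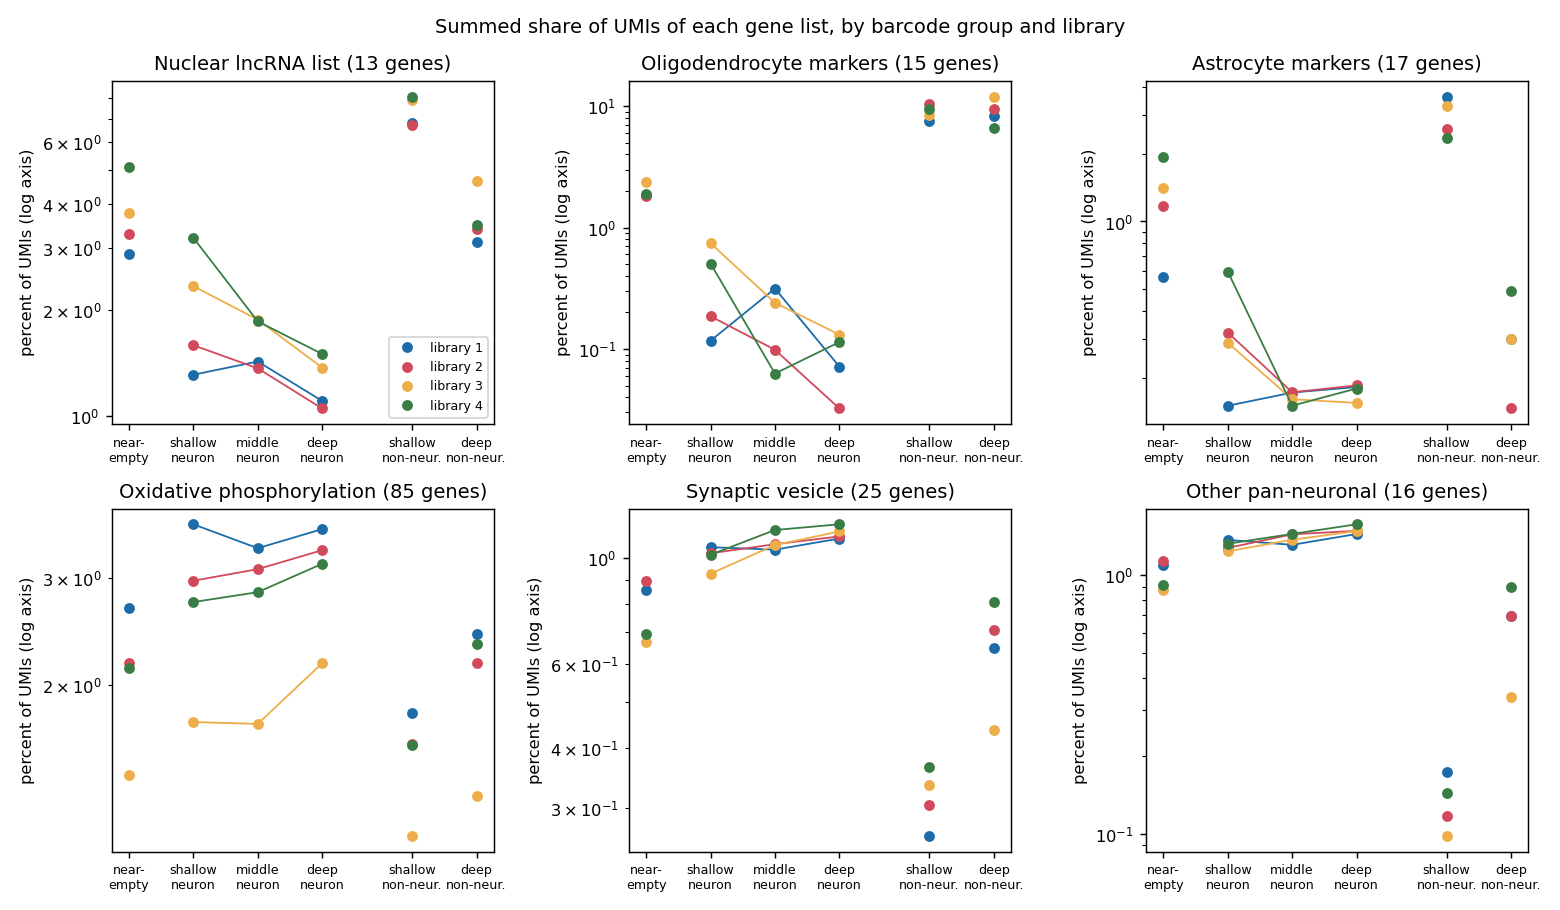
Percent of UMIs from 6 gene lists (log axes) in near-empty barcodes, in shallow, middle and deep neuron barcodes (joined by lines within a library) and in shallow and deep non-neuronal barcodes. The nuclear noncoding RNA sum, mostly Malat1 (5944 of 6527 shallow UMIs), and oligodendrocyte markers are higher in shallow than in deep ones in 4 of 4 libraries and astrocyte markers in 3, and synaptic vesicle genes lie at 0.926% to 1.05% in shallow and 1.10% to 1.18% in deep ones.

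Markers of other cell types had few UMIs in the shallow barcodes, but the summed shares of most of these lists were above those of deep barcodes. The 10 microglia markers had 10 UMIs in all 4 shallow sums, 0.00209% to 0.00874% of UMIs, against 0.00160% to 0.00205% in deep barcodes, with C1qc, Ctss, Csf1r and Tmem119 at 0. Endothelial markers had 25 UMIs with Cldn5 and Pecam1 at 0, mural and fibroblast markers 14, ependymal and choroid markers 6 with Ttr at 0, and erythrocyte markers 1 with all 4 globin genes at 0. Oligodendrocyte precursor markers had 91 UMIs, and neither of their 2 tested genes passed the test. The 1 microglia gene and the 1 endothelial gene tested had -0.24 and -0.34, against the direction of their sums, and did not pass. Summed shares of microglia, endothelial, mural and oligodendrocyte precursor markers were higher in shallow than in deep barcodes in 4 of 4 libraries. Those of ependymal and choroid markers were higher in 3 and those of erythrocyte markers in 1. For microglia the library 4 shares were almost equal, at 0.00209% and 0.00205%. The ratio of the mean shares was 2.15 for microglia, 1.67 for endothelial and 5.02 for mural and fibroblast markers, without overlap between the groups, and 1.97 for oligodendrocyte precursor markers, with overlap. In near-empty barcodes the shares were 0.0427% to 0.139% for microglia, 0.0381% to 0.122% for endothelial and 0.0114% to 0.0241% for mural and fibroblast markers. The part of such RNA in the differences above was not tested.

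Neuronal genes that the rule did not use are given as a description. The rule itself made the contrast with non-neuronal barcodes, so nothing is read from that contrast. Other pan-neuronal genes made up 1.24% to 1.37% of shallow UMIs, against 0.0978% to 0.173% in shallow non-neuronal and 1.45% to 1.58% in deep neuron barcodes. Near-empty barcodes had 0.881% to 1.13%, closer to the shallow neuron than to the shallow non-neuronal barcodes. GABAergic markers made up 0.246% to 0.352% of shallow, 0.285% to 0.348% of deep and 0.186% to 0.236% of near-empty UMIs. Of the other pan-neuronal genes, 14 of 16 were below 0, with a median of -0.25, and none passed the test. Gad2, which makes the transmitter GABA, had 1268, 2555, 1867 and 1606 CPM in shallow and 1713, 2165, 2171 and 2057 CPM in deep barcodes, lower in 3 of 4 libraries (-0.23, SE 0.12, adjusted p 0.63 in edgeR). The 5 glutamatergic markers made up 0.00141% to 0.0131% of shallow UMIs. At 500 UMIs 52.5% ± 10.2 of shallow and 58.6% ± 4.47 of deep barcodes had a Gad2 UMI, and 4.90% ± 1.47 of shallow non-neuronal ones (SD, n = 4). Without thinning the shares were 62.0%, 94.5% and 7.27%. Slc32a1, the vesicular GABA transporter gene, had 394, 240, 396 and 313 CPM in shallow and 420, 445, 410 and 503 CPM in deep barcodes, without overlap, but its -0.41 (SE 0.17) did not pass the test (adjusted p 0.46).

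Among the rises were Tshz1 and Meis2, transcription factor genes of forebrain GABAergic neurons. Middle barcodes were above both ends in 4 of 4 libraries for Meis2 and in 3 for Tshz1. Tshz1 had 98.5, 87.4, 84.9 and 125 CPM in shallow and 31.4, 16.6, 39.4 and 31.9 CPM in deep barcodes, which did not overlap, and 116, 137, 138 and 122 CPM in middle barcodes. It rose by 1.70 (SE 0.38, adjusted p 0.00561 in edgeR), on 30 shallow UMIs. With the UMIs split in this way between grouping and counting, Tshz1 had 0.83 (adjusted p 0.861). Meis2, on chromosome 2 at 115863064 to 116065839, had 492, 590, 750 and 636 CPM in shallow and 313, 415, 364 and 411 CPM in deep barcodes, again without overlap. In middle barcodes it had 618, 729, 836 and 721 CPM. Meis2 rose by 0.69 from deep to shallow barcodes (SE 0.15, adjusted p 0.00488). With the split UMIs it had 0.70 (adjusted p 0.0361). Without library 4 the values were 1.55 for Tshz1 (adjusted p 0.475 in edgeR) and 0.69 for Meis2 (adjusted p 0.328), close to those with it. The adjusted p without library 1 was 0.0528 for Tshz1 and without library 3 it was 0.229 for Meis2. Without barcodes ending in N, Meis2 had 0.57 (adjusted p 0.0598).

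Immediate early and stress genes, which respond within minutes to activity and to dissociation, were above 0 in 10 of 10 tested genes with a median of 0.56, beside 45.0% and -0.05 over all genes tested. Of the 10, 1 was higher, beside 0.423% of all genes. Fos, the activity-regulated transcription factor gene, had 49.2, 109, 184 and 313 CPM in shallow and 34.9, 67.5, 114 and 98.7 CPM in deep barcodes. It was higher in each library, most in library 4. It rose by 1.07 (SE 0.27, adjusted p 0.0287 in edgeR), while its value was 0.60 without library 4 (adjusted p 0.865) and 1.20 without library 3 (adjusted p 0.0536). In shallow non-neuronal barcodes its mean was 608 CPM. Without barcodes of at least 2% glial markers its value was 0.60 (adjusted p 0.671). Jun, its partner, had 0.70 (SE 0.22) and did not pass the test.

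Whether a difference was particular to neuron barcodes was tested as an interaction, with the same gene limits in non-neuronal barcodes (1099 shallow and 130 deep). For Malat1, non-neuronal shallow barcodes also exceeded deep ones, by 1.27 on the log2 scale, and the difference between the classes was -0.48 (SE 0.37, adjusted p 0.525 in edgeR). Mbp differed between the classes by 1.49 (SE 0.39, adjusted p 0.0102) and Tshz1 by 1.69 (SE 0.48, adjusted p 0.0216). For Zwint (1.72, adjusted p 0.00112) and 6330403K07Rik (1.80, adjusted p 0.00397), non-neuronal shallow barcodes were lower by the wider margin, with -2.18 and -2.26 against -0.46 and -0.47 in neuron barcodes. For Aldoa and Tubb2a the interaction was -0.07 (SE 0.26, adjusted p 0.936) and 0.38 (SE 0.32, adjusted p 0.576). In this fit none of the 9 falls passed in neuron barcodes alone, with an adjusted p in edgeR from 0.118 (Vgf) to 0.666 (6330403K07Rik). Malat1 had 0.78 there (adjusted p 0.281) and Meis2 0.70 (adjusted p 0.145), while Mbp (adjusted p 0.00467) and Tshz1 (adjusted p 0.0112) passed. Of 6530 genes tested 457 differed upward (7%) and 121 downward (1.85%), 8.85% in all. Between shallow neuron and shallow non-neuronal barcodes, the contrast the rule itself made, 973 of 3794 genes were higher (25.6%) and 1037 lower (27.3%), 53% in all, and nothing is read from it. Deep non-neuronal barcodes held 0.146% to 0.491% astrocyte markers, against 2.36% to 3.61% in shallow ones, so that cell type and depth cannot be told apart in the non-neuronal arm.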

How the data were processed

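The authors deposited 4 tables of raw UMI counts per gene and barcode. The submitters' processing notes name bcl2fastq 2.18.0.12, STAR 2.4.2a, Picard 2.2.4 and the mm10 (GRCm38) build, with no role given here. The annotation, the counting strand and the choice of barcodes were not given in the sources used here. Gene names were matched to GENCODE vM21 on GRCm38 (98.2% found).

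Barcodes were grouped by genes detected, and raw counts were summed per library and group. The 8 sums were tested in R 4.3.3 by edgeR's quasi-likelihood test (version 4.0.16), with TMM scaling, low genes removed by filterByExpr, and p-values adjusted by Benjamini-Hochberg over all genes tested at a threshold of 0.05. Mitochondrial and rule genes stayed in the library sizes and out of the counts of calls. Library was a block, since both sums of a library come from the same mice and the same library. Its number is the batch number of the sample title, so that pool and batch cannot be told apart. The p-values set the within-library differences against a spread over these 4 pools that is estimated in part from all genes. A small p-value therefore need not mean that the libraries were alike. Slc1a3 passed with log2 differences of -3.04, 3.91, 2.11 and 4.94 in libraries 1 to 4, with 1 CPM added to each level. The members, gene lists and tests were chosen with earlier results of these data known. Intervals and shares cover counting error only.

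Named genes were the 10 largest rises and falls past the threshold, in the same direction in 4 libraries and with a mean of at least 50 CPM, the 4 most abundant tested members of each list, and the 5 largest interactions in each direction. Mirg, Neat1, Gria3, Slc1a3, Meis2, Aldoc, Slc1a2, Sox4, Slc4a4, Sox9, Sepp1 and single markers at 0 were named after their values were seen. 1 gene the rule named is not reported here. Doublets were not removed, and removing those that Scrublet called (scanpy 1.11.5, with a set doublet rate of 0.05) was an alternative. Thinning drew 500 UMIs per barcode. Other alternatives changed the scaling, filter, tool (DESeq2 1.42.0), block, libraries, gene windows, mitochondrial limit, neuron rule, glial barcodes, barcode ends and depth. Tables were made with pandas 2.3.3, numpy 2.4.6 and scipy 1.17.1 in Python 3.11.15, and figures with matplotlib 3.10.9.

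Tested on simulated data for shallow against deep barcodes, edgeR recovered 27.2% of 195 genes changed 2-fold among 8576, with 7.02% wrong calls, above the nominal rate, and 71.3% of 188 genes changed 4-fold among 8449, with 2.19% wrong calls. In the simulation both sums of a library shared the same library effect, and all genes had the same dispersion. Differences that vary between libraries, as that of Apoe did, were not simulated, so these rates need not hold for the real sums.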

Additional observations from a re-analysis of the deposited data

Results flagged for a closer look

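In a search of 88 sets of 4 library values, 2 had a library far from the other 3, where chance gives about 1 in 20, or 4.4 sets. Glycolysis genes made up 0.289% of shallow UMIs in library 3, against 0.514% to 0.540% in the others. Myl12b had 389 CPM in the deep barcodes of library 3, against 602 to 619 CPM.

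The difference between shallow and deep barcodes itself differed between neuron and non-neuronal barcodes for the 10 genes picked by size, tested as an interaction with edgeR. The interaction was below 0 for Cxcl14 (-6.57), Plcd4 (-5.25), Slc6a11, an astrocytic GABA transporter gene (-4.63), Pla2g7 (-4.45) and Gpld1 (-4.14). In neuron barcodes these 5 had 0.49, 1.29, 0.99, -0.48 and -1.02. Their means in deep non-neuronal barcodes were 2.62, 3.33, 4.05, 9.74 and 24.9 CPM. It was above 0 for D430041D05Rik (4.71), the sodium channel subunit gene Scn2b (4.71), A830018L16Rik (4.54), Mctp1 (4.5) and the tachykinin gene Tac2 (4.49). Their means in shallow non-neuronal barcodes were 3.94, 2.90, 2.08, 5.18 and 5.19 CPM. Most of these sizes thus rest on few non-neuronal UMIs. In that fit none of the 10 passed in neuron barcodes alone, and all 10 differed in non-neuronal barcodes.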

How the results depend on the processing

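Of 36 genes higher and 9 lower in shallow barcodes, the counts under other choices were as follows. For higher genes, DESeq2 gave 11, no replicate block 13, shallow barcodes of 600 to 800 genes 7, deep barcodes from the lower gene range 16, a mitochondrial limit of 5% 21, a marker share of at least 0.3% 157 and of 1% 16. A rule with Snap25, Syt1 and Stmn2 alone gave 10, leaving out barcodes with 2% or more glial markers 9 and with 0.5% or more 3, and deep sums thinned to the shallow totals 15. For lower genes, RLE scaling gave 5, no low-count filter 176, DESeq2 0, no replicate block 0, shallow barcodes under 600 genes 68, the lower deep range 2, groups by UMIs 23, the 5% mitochondrial limit 20, no such limit 16, the 0.3% share 68, the rule with 3 genes 4, doublets removed 17, thinning 3, no barcodes ending in N 19 and the 0.5% glial limit 1. Without each library in turn, higher genes numbered 5 to 60 and lower genes 1 to 15. The cause was not tested.

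For the interaction (457 upward, 121 downward), leaving out a library gave 259 to 432 upward and 56 to 118 downward, and no replicate block 68 downward. The summed difference of synaptic vesicle genes was -0.17 and -0.28 at the 0.3% share. That of secretory genes was -0.21, with -0.29 at the 0.3% share, -0.038 with 3 rule genes and -0.32 with split UMIs. Other neuronal genes had -0.20 and -0.34 at the 0.3% share, oligodendrocyte markers 1.97 and 0.59 under the 0.5% glial limit, and astrocyte markers 0.78, 1.73 at the 0.3% share and -0.40 under that limit. Signs turned for Tsc22d4 (-0.53) and Slc1a2 (-0.21) under the 0.5% glial limit, for Qk (-0.13) and Sox4 (-0.23) at 600 to 800 genes, and for Slc4a4 (-0.056) under the 2% limit. Malat1 was above 0 under each alternative run (0.49 to 1.15) and missed the threshold without the block (adjusted p 0.526 in edgeR) and without library 4. The shallow sums held 45784 to 95869 UMIs each, so that genes below about 50 CPM rest on a few UMIs. The N-ending and 0.5% glial alternatives were chosen after seeing the data.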

Other observations

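Near-empty barcodes, with under 200 genes, were set beside the shallow neuron barcodes as the barcodes with the least RNA. Neither the mitochondrial limit nor the neuron rule was applied to them. They held 1.33%, 1.49%, 1.39% and 1.38% of the 5 neuron genes, and 10.3% to 17.9% mitochondrial UMIs. Synaptic vesicle genes made up 0.856%, 0.892%, 0.666% and 0.694% of their UMIs, below the shallow neuron barcodes in each library. Immediate early and stress genes made up 0.135%, 0.293%, 0.282% and 0.344%, in each library above the shallow neuron barcodes of that library, which had 0.0579%, 0.124%, 0.112% and 0.164%.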
